A study of Mus musculus with 14 samples.

Results

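The 10 genes described here are markers of epithelial-mesenchymal transition (EMT): the transcription factors Zeb1, Zeb2, Snai1, Snai2, Twist1 and Twist2, and the mesenchymal genes Vim, Fn1, Axl and S100a4. They were chosen by name and not by a measured value, though with earlier results of these data known, from the 23284 genes counted in each library. RNA was sequenced from primary small cell lung cancer, a neuroendocrine carcinoma, in a genetically engineered mouse model. Of 14 tumour libraries, 7 have the genotype Rb1/Trp53 (called RP here) and 7 the genotype Rb1/Trp53/Crebbp (called RPC here), so Rb1, the retinoblastoma gene, and Trp53, which encodes p53, are targeted in both groups. The design asks which genes depend on Crebbp, a histone acetyltransferase and coactivator of transcription. The labels do not name the Cre driver, the deleted exons or the age of the mice. They number the tumours 1 to 7 in each genotype but do not state whether these are separate animals. The p-values therefore reflect only how much these libraries varied.

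In EMT, epithelial cells loosen their junctions and take on a motile, matrix-producing state. ZEB and SNAI proteins are zinc finger repressors that bind E-box sequences in promoters such as that of Cdh1, which encodes E-cadherin, and TWIST proteins are basic helix-loop-helix factors that also act through E-boxes. Vim encodes the intermediate filament vimentin, Fn1 the matrix protein fibronectin, Axl a receptor tyrosine kinase and S100a4 a calcium-binding protein linked to motility. Several of these genes are also active in macrophages, fibroblasts and blood vessels, which a bulk tumour sample contains in unknown amounts.

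Libraries held between 10060969 and 24052799 counts in genes. All 7 markers of small cell lung cancer in a fixed list were detected, and the neuroendocrine gene Uchl1 was at 313.3 CPM (read counts relative to library size, scaled between libraries) or more in every library. RPC tumours 3, 5 and 6 are shown apart because Ctss, a protease gene used as a macrophage marker, was under 1 CPM there, so a low level of macrophage markers in them follows in part from how they were chosen and is given as a description. The other 7 macrophage markers summed to 4.81 to 8.45 CPM in these 3 libraries, against 344.5 to 1679 CPM in the other 11, and 4 of the 7 were under 1 CPM in all 3. Emr1 had no count in any of the 3 and Csf1r none in 2 of them. The 6 fibroblast markers summed to 3.45 and 5.53 CPM in RPC tumours 3 and 6 and to 125.8 CPM in RPC tumour 5, of which Pdgfra alone gave 116.9 CPM, against 212.4 CPM or more elsewhere. Crebbp was at 59.3 to 97.0 CPM in RP and 57.8 to 69.8 CPM in RPC, and neither Rb1 (74.4 to 236.2 against 90.4 to 178.1 CPM) nor Trp53 (20.4 to 34.3 against 12.4 to 34.3 CPM) separated the genotypes. Counts over a whole gene include exons outside a deletion and so do not check the labels.

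None of the 10 genes differed between genotypes past the threshold. In simulated data the fit called 34.3% of genes planted with a 2-fold change and 76.5% with a 4-fold change. A missing call therefore does not show equal levels. Mean Zeb1 was higher in RPC, Snai1 and Fn1 were lower in most RPC tumours, and Vim and Zeb2 were near equal once RPC tumours 3, 5 and 6 were set aside. Of the 8 genes with enough counts to test, 0 were called by edgeR's quasi-likelihood test at a Benjamini-Hochberg adjusted p under 0.05, where 2.21% of all 14804 tested genes were called (1.09% higher and 1.12% lower in RPC). DESeq2 and limma-voom also called 0 of the 8, where DESeq2 called 10.1% of the genes it tested (4.84% higher, 5.21% lower) and limma-voom 3.40% (1.43% higher, 1.97% lower). At an unadjusted p under 0.05, 1 of the 8 (Fn1, lower in RPC) passed, beside 21.3% of all tested genes in either direction (10.3% higher, 11.1% lower). The median log2 fold change of the 8 was -0.34, with 5 of 8 (62.5%) negative, and that of all tested genes was 0, with 49.8% negative. Without RPC tumours 3, 5 and 6 the median of the 8 was 0.03 and again 0 were called (0 at an unadjusted p under 0.05), beside 0.0716% of 15358 genes called and 11.9% at an unadjusted p. With the non-tumour score described further on as a term in the fit, 0 of the 8 passed either threshold. In that fit 0.0473% of all genes were called and 10.4% passed at an unadjusted p. The score includes Ctss and lies far lower in RPC tumours 3, 5 and 6 than in the other libraries. Adding it to the fit is therefore not a separate check from leaving those tumours out. In bulk tumour RNA, fewer cells of a type and less RNA per cell cannot be told apart.

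**Figure D1:**
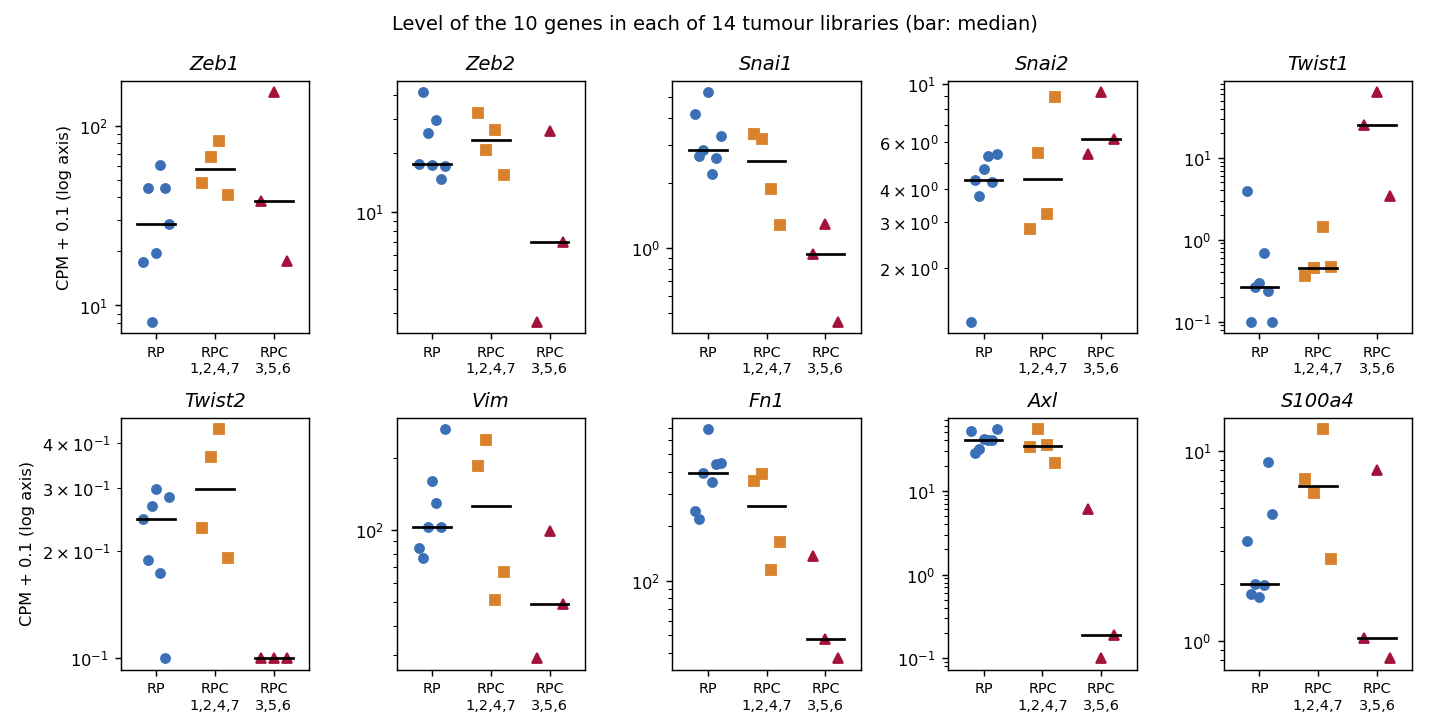
CPM plus 0.1 of each of the 10 genes (log axis) in 7 RP tumours (circles), RPC tumours 1, 2, 4 and 7 (squares) and RPC tumours 3, 5 and 6 (triangles), with a bar at the median of each set. Axl is at 5.96 CPM or less in RPC tumours 3, 5 and 6 and at 21.4 CPM or more in the other 11 libraries, and Twist1 reaches 25.1 and 62.7 CPM in RPC tumours 3 and 5.

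On a scale of CPM per kilobase of exon, the levels of the genes could be set beside each other. In RP tumours the median was 33.7 for Fn1, 21.9 for Vim, 7.98 for Axl, 3.26 for S100a4, 2.78 for Zeb1, 2.08 for Snai2, 1.69 for Snai1 and 0.880 for Zeb2. Twist1 at 0.102 and Twist2 at 0.0455 were the lowest. The ranges of Fn1 (18.7 to 58.8) and Vim (16.1 to 55.9) overlapped, both lay above that of Axl (5.61 to 10.7), and neighbours from Axl down to Twist2 overlapped. In RPC tumours the medians per kilobase were 14.1 for Vim, 11.6 for Fn1, 10.1 for S100a4, 4.67 for Zeb1, 4.24 for Axl, 2.66 for Snai2, 1.03 for Zeb2, 0.827 for Twist1, 0.735 for Snai1 and 0.0285 for Twist2. The 3 mesenchymal genes Fn1, Vim and S100a4 thus headed the RPC order, with ranges that overlapped.

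Of the ZEB repressors, Zeb1 was the one with the higher levels in RPC. Zeb1 was at 8.03 CPM at the lowest, 28.5 at the median and 60.2 at the highest in RP tumours (31.9 ± 18.7, mean ± SD, n = 7). In RPC tumours 1, 2, 4 and 7 it was at 48.0, 67.2, 82.2 and 41.3 CPM, and in tumours 3, 5 and 6 at 38.0, 153.7 and 17.7 CPM (64.0 ± 44.7 over all 7). RPC tumours 2, 4 and 5 lay above every RP tumour, 6 of 7 RPC tumours lay above the RP median, and the groups overlapped. The edgeR log2 fold change was 1.0 (SE 0.47; unadjusted p = 0.0507, adjusted p = 0.236). It came to 0.90 (SE 0.44, adjusted p = 0.445) when RPC tumours 3, 5 and 6 were left out and 0.62 without RPC tumour 5, the lowest value on leaving out any library.

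Zeb2, the paralog of Zeb1, is also a gene of macrophages. Its level was 14.7 to 41.1 CPM in RP tumours with a median of 17.6, and 32.1, 20.6, 26.2 and 15.4 CPM in RPC tumours 1, 2, 4 and 7. RPC tumours 3, 5 and 6 gave 2.62, 26.1 and 6.87 CPM. Tumours 3 and 6 thus lay below every RP tumour, while RPC tumour 5, where macrophage markers were as low, stayed inside the RP range. The cause of the Zeb2 levels was not tested. Zeb2 had a fold change of -0.32 on the log2 scale (SE 0.44, adjusted p = 0.694), which changed sign to 0.03 (SE 0.32, adjusted p = 0.989) without those 3 libraries. On leaving out single libraries it ran from -0.51 without RPC tumour 1 to -0.13 without RPC tumour 3, and it was -0.53 with a block for the tumour number. Reads from the antisense gene at the Zeb2 locus cannot be told apart, since the use of strand is not given.

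Snai1 and Snai2 encode the repressors Snail and Slug, and both were at a few CPM. Snai1 was at 2.10 to 5.12 CPM in RP tumours with a median of 2.73 (29 to 130 counts per library), and at 3.25, 3.09, 1.77 and 1.18 CPM in RPC tumours 1, 2, 4 and 7. In RPC tumours 3, 5 and 6 it was at 0.837, 1.19 and 0.357 CPM, from 8, 22 and 4 counts. So 5 of 7 RPC tumours lay below every RP tumour, among them tumours 4 and 7, and tumours 1 and 2 lay inside the RP range. All 8 macrophage markers, here with Ctss included, summed to 407.5 and 744.6 CPM in tumours 4 and 7. The sums were 464.7 and 1950 CPM in tumours 1 and 2. The cause of the Snai1 levels was not tested. For Snai1 edgeR gave a log2 fold change of -0.92 (SE 0.44; unadjusted p = 0.0515, adjusted p = 0.238), and leaving out RPC tumours 3, 5 and 6 gave -0.45 (SE 0.40, adjusted p = 0.732). With the non-tumour score in the fit Snai1 was at -0.39 (SE 0.41, adjusted p = 0.831).

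Snai2 ran the other way on average. It was at 1.16 CPM in RP tumour 1, at 3.64 to 5.31 CPM in the other 6 RP tumours, and at 2.72, 5.38, 3.11 and 8.78 CPM in RPC tumours 1, 2, 4 and 7. RPC tumours 3, 5 and 6 were at 5.33, 9.16 and 6.07 CPM. The 5 RPC tumours 2, 3, 5, 6 and 7 lay above every RP tumour, tumour 3 only just (5.33 against 5.31 CPM), and tumours 1 and 4 lay below the RP median of 4.21. On the log2 scale the difference for Snai2 was 0.51 (SE 0.37, adjusted p = 0.439), and 0.30 (SE 0.45, adjusted p = 0.862) with RPC tumours 3, 5 and 6 left out. Leaving out RP tumour 1, the low one, gave 0.35.

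The promoter of Snai1 is shown because it was the only one of the 7 members with an entry in the RefSeq promoter table (GRCm38.p6) to hold the E-box CACCTG, the form that SNAI and ZEB proteins bind, which reads CAGGTG on the other strand. Both strands were searched in windows from 250 bases before to 50 after the start. Capitals mark the match, at -126 from the start in chr2:167537945-167538244 on the + strand. The motif is in such a window for 22.6% of all genes with an entry, so 1 of 7 is a description of these letters and not of binding.
Snai1: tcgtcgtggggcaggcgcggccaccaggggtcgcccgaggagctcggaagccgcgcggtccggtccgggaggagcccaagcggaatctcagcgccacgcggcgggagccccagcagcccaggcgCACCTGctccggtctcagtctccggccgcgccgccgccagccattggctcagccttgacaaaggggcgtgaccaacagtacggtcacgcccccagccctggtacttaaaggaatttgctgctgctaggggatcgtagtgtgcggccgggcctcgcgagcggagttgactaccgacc
No window was given for Zeb1, Snai2 or Fn1.

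Twist1 was at or near the detection limit in most tumours and high in a few. RP tumour 1 had 53 counts (3.83 CPM), and the other 6 RP tumours had 0 to 8 counts, at most 0.581 CPM. RPC tumours 1, 2, 4 and 7 were at 0.263, 0.353, 1.35 and 0.362 CPM. RPC tumour 5 had 1157 counts (62.7 CPM), RPC tumour 3 had 240 counts (25.1 CPM) and RPC tumour 6 had 37 counts (3.30 CPM). Tumours 3 and 5 lay above every RP tumour, tumour 6 just below RP tumour 1, and the remaining RPC tumours at 1.35 CPM or less. Twist1 did not pass the filter on low counts. A fit with no filter gave Twist1 a log2 difference of 4.24 (SE 1.47, adjusted p = 0.139).

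Twist2 had 25 counts in all 14 libraries together, 0 to 5 in each. The 3 RPC tumours 3, 5 and 6 had none, and a count of 0 there allows up to 0.314, 0.163 and 0.268 CPM, limits that cover counting error only. Since the highest level elsewhere was 0.337 CPM, no difference could be detected at this depth.

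Vimentin RNA was abundant and varied as much within a genotype as between them. Vim was at 76.3 CPM at the lowest, 103.7 at the median and 264.9 at the highest in RP tumours. It was at 185.9, 238.0, 51.0 and 66.9 CPM in RPC tumours 1, 2, 4 and 7 and at 29.1, 99.1 and 49.3 CPM in tumours 3, 5 and 6. Tumours 3, 4, 6 and 7 lay below every RP tumour, and tumours 1 and 2 lay above all RP tumours but RP tumour 7. Vim had a log2 difference of -0.36 (SE 0.44, adjusted p = 0.655). It turned to 0.04 (SE 0.44, adjusted p = 0.987) when RPC tumours 3, 5 and 6 were left out, and to 0.16 (SE 0.43, adjusted p = 0.948) with a score of non-tumour markers in the fit. Single libraries moved it as well, to -0.09 without RP tumour 7 and -0.72 without RPC tumour 2, and it was -0.65 with a block for the tumour number and -0.56 with limma-voom.

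Fibronectin gave the smallest p of the 8 tested genes. Fn1 was at 219.1 CPM at the lowest, 394.0 at the median and 687.6 at the highest in RP tumours (397.4 ± 156.4, mean ± SD, n = 7). It was at 356.2, 391.0, 114.9 and 162.8 CPM in RPC tumours 1, 2, 4 and 7 and at 135.9, 47.4 and 37.1 CPM in tumours 3, 5 and 6 (177.9 ± 141.4 over all 7). All 7 RPC tumours were below the RP median, RPC tumour 2 narrowly, and 5 of 7 were below every RP tumour. The log2 fold change of Fn1 was -1.16 (SE 0.47; unadjusted p = 0.0275, adjusted p = 0.179).
The low Fn1 tumours included RPC tumours 4 and 7. Their 8 macrophage markers, Ctss included, summed to 407.5 and 744.6 CPM and their fibroblast markers to 310.8 and 255.8 CPM. RPC tumours 1 and 2, with higher Fn1, had macrophage sums of 464.7 and 1950 CPM and fibroblast sums of 601.8 and 555.0 CPM. The cause of the Fn1 levels was not tested. Leaving out RPC tumours 3, 5 and 6 gave a log2 fold change for Fn1 of -0.63 (SE 0.38, adjusted p = 0.551), and adding the non-tumour score to the fit gave -0.64 (SE 0.42, adjusted p = 0.658). Adjusted p for Fn1 was 0.105 to 0.306 on leaving out each library in turn, 0.0897 with DESeq2 and 0.0825 with limma-voom.

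Axl was low in RPC tumours 3, 5 and 6. It was at 28.3 to 53.8 CPM in RP tumours with a median of 40.2, and at 33.4, 54.2, 35.3 and 21.4 CPM in RPC tumours 1, 2, 4 and 7. RPC tumour 3 had 57 counts (5.96 CPM), RPC tumour 6 had 1 count (0.0892 CPM) and RPC tumour 5 had none, which allows up to 0.163 CPM. The 3 values lay below all other 11 libraries, and the remaining RPC tumours overlapped the RP range, with tumour 7 under it. For Axl the log2 fold change was -0.93 (SE 0.89, edgeR adjusted p = 0.567) over all tumours and -0.18 (SE 0.25, adjusted p = 0.854) without these 3. Its size depended on the method, since limma-voom gave -3.33 (SE 1.20, adjusted p = 0.104) and a block for the tumour number -2.01 (SE 1.25, adjusted p = 0.352). The 3 libraries had been set apart by a macrophage marker, so that they are also low in such markers is no further result. With the non-tumour score in the fit Axl was at -0.16 (SE 0.77, adjusted p = 0.976).

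S100a4, also known as fibroblast-specific protein, was low and variable. It was at 1.62 CPM at the lowest, 1.91 at the median and 8.70 at the highest in RP tumours, and at 7.02, 5.91, 12.96 and 2.62 CPM in RPC tumours 1, 2, 4 and 7. RPC tumours 3, 5 and 6 were at 0.941, 7.91 and 0.714 CPM. Of the RPC tumours 5 of 7 were above the RP median, tumour 4 above every RP tumour, and tumours 3 and 6 below every RP tumour. S100a4 had a log2 difference of 0.69 (SE 0.62, adjusted p = 0.540), or 1.08 (SE 0.55, adjusted p = 0.475) with RPC tumours 3, 5 and 6 left out. It came to 0.32 without RPC tumour 4 and to 1.11 without RP tumour 6, the highest of each genotype.

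**Figure D2:**
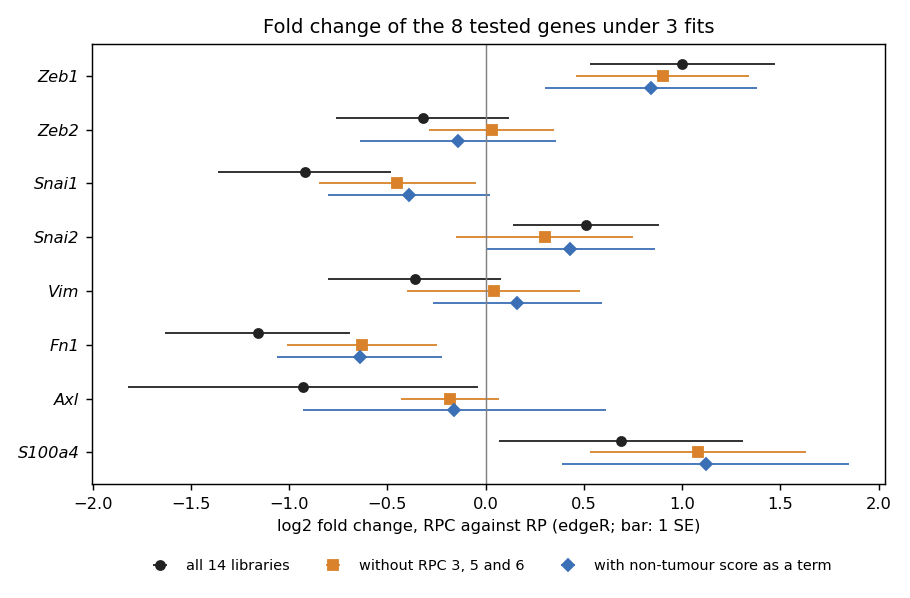
Log2 fold change of RPC against RP with 1 SE to each side for the 8 tested genes, in edgeR fits of all 14 libraries (circles), without RPC tumours 3, 5 and 6 (squares) and with the non-tumour score as a term (diamonds). Zeb1 stays at 0.84 to 1.0 in the 3 fits. Axl moves from -0.93 to -0.18 and -0.16, and Vim from -0.36 to 0.04 and 0.16. No gene passed the adjusted threshold in any of the 3 fits. The score is far lower in RPC tumours 3, 5 and 6 than elsewhere, so squares and diamonds are not separate checks.

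The 6 transcription factors and 4 mesenchymal genes did not run together in RPC tumour 5, a tumour singled out after its values were seen. It had the highest Zeb1 (153.7 CPM), Snai2 (9.16 CPM) and Twist1 (62.7 CPM) of all 14 libraries, and Vim at 99.1 CPM was inside the RP range. Fn1 at 47.4 CPM and Axl at 0 were below every RP tumour. Neuroendocrine genes remained detected there, with Chga at 570.8 CPM and Uchl1 at 830.5 CPM. RPC tumour 3, which had the second highest Twist1, had Zeb1 at 38.0 CPM and the lowest Vim of all libraries.

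Epithelial targets and gatekeepers of EMT, a list of 20 genes of junctions, keratins and factors such as Grhl2 that hold the epithelial state, were lower in RPC on balance, but 0 of 20 were called by edgeR or limma-voom and 3 (15%) by DESeq2 (Cldn3, Cldn4 and Krt18, lower), beside 5.21% of all genes that DESeq2 called lower. Their median log2 fold change was -1.10 with 19 of 20 negative (95%), against 0 and 49.8% for all tested genes, and 8 of 20 were lower at an unadjusted p under 0.05, beside 11.1% of all tested genes. Without RPC tumours 3, 5 and 6 the median was -0.97, 20 of 20 were negative, 0 were called and 12 had an unadjusted p under 0.05, beside 11.9%. Summed, the 20 genes were at 3659 to 6952 CPM in RP tumours and 1474 to 3078 CPM in 6 RPC tumours, so these did not overlap, and at 27.3 CPM in RPC tumour 5. Cdh1, the classical target of ZEB and SNAI, was at 657.5 to 1242 CPM in RP, 0.650 CPM in RPC tumour 5 and 164.8 to 722.2 CPM in the other RPC tumours (log2 fold change -1.60, SE 0.72, adjusted p = 0.217). Krt8, a simple epithelial keratin, was at 626.6 to 1307 CPM in RP and 0.217 to 547.5 CPM in RPC, with no overlap (-1.57, SE 0.74, adjusted p = 0.234). Krt8, Cldn3 and St14 were the 3 of the 20 whose genotypes did not overlap, as did not 1.15% of all tested genes. The members and the epithelial list share these 14 libraries, and the list was drawn up with earlier results of these data known.

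**Figure D3:**
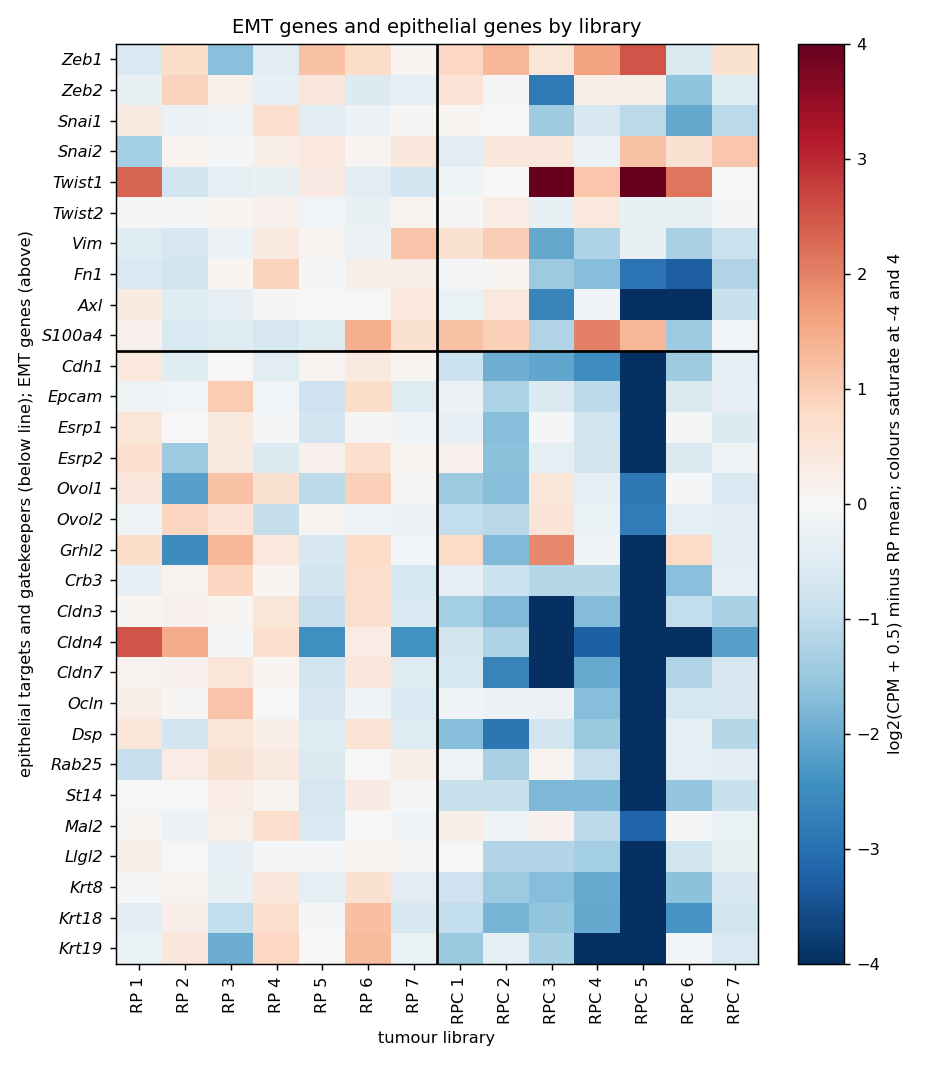
Log2 (CPM + 0.5) minus the RP mean for the 10 EMT genes (above the line) and 20 epithelial genes (below it) in 7 RP and 7 RPC tumours; colours saturate at -4 and 4. RPC tumour 5 is dark blue in nearly the whole epithelial block, where its genes sum to 27.3 CPM, and red for Zeb1, Snai2 and Twist1, while RPC tumours 3 and 6 keep epithelial sums of 2148 and 2359 CPM.

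Of the 11 epithelial genes with a promoter entry, 6 hold the CACCTG E-box at least 2 times in a window, and all of these 6 were at 4.06 CPM or less in RPC tumour 5. Such levels were not particular to them. Krt8, with 1 match, and Ovol2, with no match, were at 0.217 and 0.488 CPM in that tumour, where all 20 listed genes summed to 27.3 CPM. The share of all genes with at least 2 matches was not computed. Promoters of 3 of the 6, chosen after their values were seen, are shown as examples, and Cldn4, Cldn7 and Ocln (0.0542, 0.488 and 0.0542 CPM in that tumour) are the others. Crb3, a polarity protein of the Crumbs complex, was at 0.108 CPM there and 7.41 CPM or more in the other RPC tumours. Epcam, an epithelial adhesion protein, was at 4.06 CPM against 218.9 CPM or more, and Rab25, a small GTPase of recycling endosomes, at 0.488 against 24.1 CPM or more. The windows are chr17:57061981-57062280 on the + strand for Crb3, with matches at -148, -93, -37 and -5, chr17:87635729-87636028 on the + strand for Epcam, with matches at -187 and -19, and chr3:88548230-88548529 on the - strand for Rab25, with matches at -64 and -53. Sequences run 5′ to 3′ from the RefSeq table of GRCm38.p6, with matches in capitals.
Crb3: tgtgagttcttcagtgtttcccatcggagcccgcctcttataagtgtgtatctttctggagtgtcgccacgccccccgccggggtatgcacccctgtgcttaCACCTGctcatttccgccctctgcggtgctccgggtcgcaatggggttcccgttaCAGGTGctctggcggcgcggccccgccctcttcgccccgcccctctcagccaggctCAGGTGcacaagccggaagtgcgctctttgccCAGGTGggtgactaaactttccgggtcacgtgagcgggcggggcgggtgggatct
Epcam: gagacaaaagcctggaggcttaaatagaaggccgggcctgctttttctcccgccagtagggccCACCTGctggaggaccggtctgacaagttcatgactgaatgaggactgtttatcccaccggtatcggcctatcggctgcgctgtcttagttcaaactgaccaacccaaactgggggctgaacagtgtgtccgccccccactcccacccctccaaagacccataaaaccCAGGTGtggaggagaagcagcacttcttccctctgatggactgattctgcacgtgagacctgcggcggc
Rab25: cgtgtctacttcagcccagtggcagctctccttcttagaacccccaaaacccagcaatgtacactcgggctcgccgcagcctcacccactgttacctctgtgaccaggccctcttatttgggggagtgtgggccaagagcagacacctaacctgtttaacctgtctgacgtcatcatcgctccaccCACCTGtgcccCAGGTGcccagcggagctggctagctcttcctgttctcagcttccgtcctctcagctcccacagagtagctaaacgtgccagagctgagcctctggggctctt
The motif was in the window of 10 of the 11 epithelial genes with an entry (12 of 14 windows), against 20.2% of all 32851 windows. The genes were listed partly as known E-box targets, so this share describes the list and is no measure of binding.

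Among the inducers of EMT, 1 of 8 genes of the TGF-beta pathway was called, as higher, beside 2.21% of all tested genes in either direction and 1.09% called higher. The median log2 fold change of the 8 was -0.42, and 5 of 8 were negative. At an unadjusted p under 0.05, 1 was higher and 2 were lower, beside 10.3% and 11.1% of all tested genes. Tgfb2, a ligand, was at 2.40 to 7.01 CPM in RP tumours and at 6.49 to 141.5 CPM in RPC tumours, 6 of which lay above every RP tumour. RPC tumours 4 and 5 had the highest levels, 141.5 and 95.3 CPM. Tgfb2 rose by 3.02 on the log2 scale (SE 0.69, adjusted p = 0.0388). The call was lost with limma-voom (adjusted p = 0.133), with a block for the tumour number (0.104), with the non-tumour score (0.234), without RPC tumours 3, 5 and 6 (3.06, adjusted p = 0.129), and on leaving out any 1 RP tumour but tumour 3, or RPC tumour 3, 4 or 5 (0.0516 to 0.0884). Tgfb3, another ligand, was at -1.60 (log2; SE 0.45, adjusted p = 0.0714). The signal transducers Smad2 and Smad4 were at 0.27 and 0.32 (adjusted p = 0.400 and 0.265). DESeq2 also called Tgfb2 higher, and both DESeq2 and limma-voom called Tgfb3 lower, which makes 2 of 8 beside 10.1% of all genes with DESeq2 and 1 of 8 beside 3.40% with limma-voom.

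Of 9 other EMT transcription factors 7 were tested and 0 called, with a median log2 fold change of -0.49. At an unadjusted p under 0.05, 2 of the 7 were lower, beside 11.1% of all tested genes. Foxq1, a forkhead factor, was at -1.45 (SE 0.42, adjusted p = 0.0762). Foxc1 (-0.28) and the Snail relative Snai3 (-1.07) also missed the threshold. Of 15 partners of SNAI, ZEB and TWIST 0 were called, and the median was 0.23, or -0.03 without RPC tumours 3, 5 and 6. At an unadjusted p under 0.05, 1 partner was higher and 1 lower, beside 10.3% and 11.1% of all tested genes. Fbxl14, a ubiquitin ligase subunit that acts on SNAI proteins, was at -0.62 (SE 0.17, adjusted p = 0.0643). Hdac2, a histone deacetylase of repressor complexes, was at 0.60 (adjusted p = 0.156), the demethylase Kdm1a at 0.32 (0.436) and the corepressor Ctbp1 at 0.01 (0.985). DESeq2 called 1 gene of each list, Foxq1 (1 of 7) and Fbxl14 (1 of 15), both lower, beside 5.21% of all genes, so neither count sets its list apart, and limma-voom called 0.

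Relatives and ligands of the 4 mesenchymal genes gave no edgeR call. Of 13 other mesenchymal effectors 0 were called, with a median of -0.35 and 0.04 without RPC tumours 3, 5 and 6. At an unadjusted p under 0.05, 1 effector was higher and 1 lower, beside 10.3% and 11.1% of all tested genes. Vcan, a matrix proteoglycan, was at 2.16 (SE 0.71, adjusted p = 0.107), Mmp9, a matrix protease, at -1.82 (SE 0.60, adjusted p = 0.107), N-cadherin (Cdh2) at 0.31 (0.523) and the matrix protein gene Sparc at -0.71 (0.703). DESeq2 called Vcan higher and Mmp9 lower, 2 of 13 beside 10.1% of all genes, and limma-voom 0 of the 13. Of 6 fibronectin receptor subunits 0 were called and 2 were lower at an unadjusted p, Itga4 at -1.65 (SE 0.65, adjusted p = 0.167; -0.35 without RP tumour 3, which had 178.7 CPM against 7.74 to 26.4 in the other RP tumours) and Itgav at -1.28 (SE 0.57, adjusted p = 0.211), while Itgb1, the most abundant, was at 0.10 (0.750) and Itgb3 at -1.04 (0.459). DESeq2 and limma-voom called 0 of these 6, and the 2 that were lower at an unadjusted p stand beside 11.1% of all tested genes.
Of 4 other TAM receptors and ligands, the family of Axl, 0 were called by edgeR or limma-voom. DESeq2 called 1 of the 4, Tyro3, as higher, beside 4.84% of all genes. Tyro3 was also the 1 gene of the 4 at an unadjusted p under 0.05, beside 10.3% of all tested genes that were higher. The receptor Tyro3 was at 4.48 ± 1.61 CPM in RP and 19.7 ± 17.1 CPM in RPC (SD, n = 7 each; log2 fold change 2.14, SE 0.53, adjusted p = 0.0506), and Mertk at -0.82 (0.578). Gas6, the ligand of Axl, was at 857.8 CPM in RPC tumour 5, the tumour with no count for Axl, and its log2 fold change of 1.10 became -1.02 without that tumour (adjusted p = 0.565 and 0.523). Pros1, another ligand of the family, was at 0.16 (0.818).
Of 9 other S100 genes 7 were tested and 0 called by any of the 3 tools, with a median of -0.94. At an unadjusted p under 0.05, 2 of the 7 were lower, beside 11.1% of all tested genes. S100a14 was at -3.40 (SE 1.20, adjusted p = 0.129), S100a1 at -1.75 (0.192), S100a16 at -1.79 (0.337) and S100a11 at -0.68 (0.486). RP tumour 6 carried the first 3 of these differences. There S100a14 was at 816.9 CPM, S100a1 at 272.8 and S100a16 at 1322, against 2.57 to 69.2, 4.47 to 41.1 and 21.5 to 133.8 CPM in the other RP tumours, and without that tumour the log2 fold changes were -1.02, -0.36 and -0.13. Of 10 other intermediate filament genes 9 were tested and 0 called by edgeR. At an unadjusted p under 0.05, 1 was higher and 2 were lower, beside 10.3% and 11.1% of all tested genes. DESeq2 and limma-voom both called Ina higher and Lmna lower, and DESeq2 also called Nefl lower. That makes 3 of 9 beside 10.1% of all genes with DESeq2, and 2 of 9 beside 3.40% with limma-voom. Lmna, which encodes lamin A/C, was at -0.97 (SE 0.25, adjusted p = 0.0575), the neuronal filament gene Ina at 1.16 (SE 0.32, adjusted p = 0.0671), Nefh at 0.66 (0.364) and Prph at 0.17 (0.871).

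Genes most like each member in pattern were found as the 2 with the smallest mean absolute difference of centred log2 CPM over 14 libraries, among 11688 genes. They were Adamts10 and Rpl22l1 for Zeb1 (0.46 and 0.48, where Zeb1 itself deviated from its mean by 0.82 on average), Sgsh and Col7a1 for Zeb2 (0.45 and 0.46 of 0.66), and Cd300a and N4bp3 for Snai1 (0.33 and 0.34 of 0.71). Snai2 was nearest to Oxct1 and Thap2 (0.25 and 0.26 of 0.50), and both had their lowest RP level in RP tumour 1, as Snai2 did. The search included RP tumour 1, so that shared low level follows in part from how the 2 genes were found. Vim was nearest to Lipa and Mrc2 (0.36 each of 0.69), Fn1 to Ctsz and Apobr (0.34 and 0.43 of 0.98), and S100a4 to Pink1 and Msra (0.65 and 0.66 of 1.02). Axl was nearest to Fcgr3, an Fc receptor of myeloid cells, and Dab2, an endocytic adaptor (0.50 and 0.52 of 2.04). Fcgr3 was at 0.209, 0 and 0 CPM in RPC tumours 3, 5 and 6 and at 8.59 CPM or more elsewhere. The search included these 3 libraries, which were set apart by a macrophage marker. That a myeloid gene lay near Axl thus follows in part from that choice and is given as a description.

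The 8 tested genes were set against a non-tumour score, the mean centred log2 level of macrophage, fibroblast, endothelial, T and NK cell, alveolar type 2 and club cell markers. RPC tumours 3, 5 and 6 scored -3.96, -3.97 and -4.01, a separate cluster, and the other 11 scored -0.23 to 2.67, so the relation was taken over those 11 libraries only. After adjustment over 8 genes 0 relations passed. Zeb2 was lower where the score was higher (Pearson's r = -0.63, permutation p = 0.038, adjusted 0.304; Spearman's rho = -0.65, permutation p = 0.0365, adjusted 0.156). Its r was -0.62 without the 2 libraries farthest from the median score (RP tumour 7 and RPC tumour 4) and -0.56 within RP alone (exact permutation p = 0.181). Snai2 gave r = 0.26 (permutation p = 0.453, adjusted 0.618) and rho = 0.64 (permutation p = 0.039, adjusted 0.156), and r = 0.68 without RP tumour 1 (adjusted permutation p = 0.230). Axl gave r = 0.42 (permutation p = 0.205, adjusted 0.546; rho = 0.54, permutation p = 0.0966, adjusted 0.258) and within the 7 RP tumours r = 0.71 (exact permutation p = 0.0655, adjusted 0.394) and rho = 0.89 (exact permutation p = 0.0123, adjusted 0.0984). Values of r for the other 5 were 0.45 for Vim, 0.30 for Fn1, 0.25 for Snai1, -0.09 for Zeb1 and -0.11 for S100a4 (adjusted permutation p = 0.546 to 0.785). The labels give no batch or date within which these could be repeated.

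**Figure D4:**
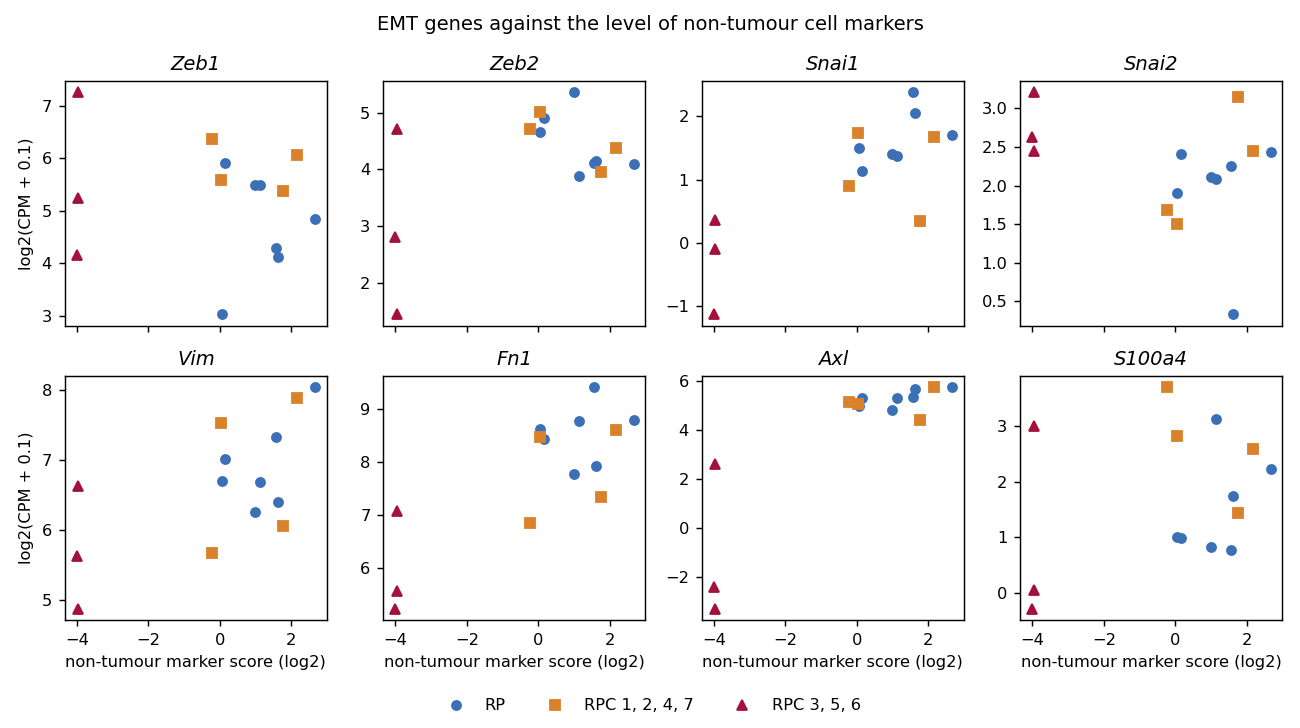
Log2 (CPM + 0.1) of the 8 tested genes against the non-tumour score (log2 units) in RP tumours (circles), RPC tumours 1, 2, 4 and 7 (squares) and RPC tumours 3, 5 and 6 (triangles). The 3 triangles lie at a score near -4; there Axl drops to 5.96 CPM or less, Snai2 stays at 5.33 to 9.16 CPM, and Zeb1 spans 17.7 to 153.7 CPM.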

How the data were processed

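Cells were lysed in TRIzol, polyadenylated RNA was selected and libraries were made with a NEBNext Ultra kit, per the labels' protocols. The authors deposited raw read counts per gene, with no normalization, for 14 tumours. Per the submitters' processing notes, the tools were HTSeq 0.6.1, TopHat2 2.0.12 and bcl2fastq 1.8.2, and the genome mm9. Their settings, the strand option and the annotation were not given in the sources used here, so an antisense partner's reads are not separable. In each file 5 entries without a gene were left out (reads outside genes 15.1% to 20.5%, not unique 8.44% to 11.2%, ambiguous 0.883% to 1.09%). In 42 comparisons within genotypes the lowest chi-square per degree of freedom was 62.1, so no library was a repeat.

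The tests used edgeR 4.0.16 in R 4.3.3: filterByExpr (minimum count 10, minimum total 15), TMM scaling, and the quasi-likelihood test between genotypes over 14 libraries, with Benjamini-Hochberg adjustment over all tested genes and calls at 0.05. CPM uses TMM-scaled library sizes, and log2 CPM a prior count of 2. Each SE was derived from the fold change and its F statistic. Alternatives were DESeq2 1.42.0 (tool and size factors), limma-voom (limma 3.58.1), upper-quartile scaling, no filter, at least 1 CPM in at least 7 libraries, a replicate block, the non-tumour score as a term, and leaving out libraries. Permutation tests of the score relation were two-sided with 100000 resamples, or exact over 7 RP tumours (Python 3.11.15, scipy 1.17.1). On simulated data the fit called 34 of 99 genes planted with a 2-fold change and 75 of 98 with a 4-fold change. Of its 113 calls there, 4 were false.

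Named genes are the 10 members, the targeted genes, up to 2 genes of each list by smallest p and 2 more by highest CPM, and the 2 genes nearest each member in pattern (mean of at least 5 CPM, no predicted or sex genes). Epcam, Crb3, Rab25, Grhl2, Cldn3, St14, Nefl and genes given for 1 tumour were named after their values were seen. Some genes that the rule names are not reported here. The members and lists were chosen with earlier results of these data known. Emr1 is the files' older symbol for Adgre1. Exon lengths are from GENCODE M21 (GRCm38), matched by symbol.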

Additional observations from a re-analysis of the deposited data

Results flagged for a closer look

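Of 150 groups of 7 tumours (75 genes named in the text, 2 genotypes), 19 held a tumour far from the other 6 on the log2 scale by Dixon's criterion. Chance alone gives about 1 in 20, but the 19 cannot be read against it: several of the genes were named after their values were seen or for their likeness to a member, and many vary together. Among the 10 EMT genes, 1 of 20 groups was of this kind, Snai2 in RP tumour 1, at 1.16 CPM where the next lowest RP tumour had 3.64. Oxct1 and Thap2, the genes nearest to Snai2 in pattern, were low in the same tumour, at 54.4 and 6.57 CPM against 199 and 20.1 CPM. They were chosen for their likeness to Snai2 with that tumour included, so their low levels there are no separate result.

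RPC tumour 5 was the lowest of its group for Cdh1 (0.65 CPM), Epcam (4.06), Crb3 (0.108), Rab25 (0.488), Krt8 (0.217), Krt18 (0.867), St14 (1.41) and Grhl2 (0.163), where the next RPC tumour had 7.41 to 219 CPM, and for Snai3 (0 CPM against 1.15). A count of 0 there allows up to 0.163 CPM.

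The remaining tumours of this kind were RP tumour 5 for St14 (193 CPM, next 301), RP tumour 3 for Hdac2 (355, next 182), Itga4 (179, next 26.4) and Nefh (131, next 56.7), RPC tumour 2 for Pros1 (47.6, next 18.6), RP tumour 4 for Ctsz (688, next 402) and RP tumour 6 for Apobr (17.8, next 7.45 CPM).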

How the results depend on the processing

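No member was called under any alternative run, and over 8 members 181 of 184 log2 fold changes under an alternative kept their sign and side of the threshold, as did all 112 that left out 1 library. The 3 that changed sign were Zeb2 without RPC tumours 3, 5 and 6 (0.03), Vim without them (0.04) and Vim with the non-tumour score (0.16). The count of all genes called, 327, was 1431 with DESeq2, 503 with limma-voom, 7 with the non-tumour score and 11 without RPC tumours 3, 5 and 6, and 51 to 898 on leaving out 1 library (lowest without RP tumour 6, highest without RP tumour 3). The cause of these shifts was not tested. With an added block for the replicate number the count was 74. The labels do not state whether equal numbers mark pairs of tumours. Of the same-numbered pairs, 3 of 7 had correlated deviations over 0.1 (range -0.05 to 0.32) and 2 of 7 correlated best with their own number, which does not settle it.

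Relations to the non-tumour score changed sign within RP alone for Zeb1 (0.05), Snai2 (-0.09) and S100a4 (0.42), without the 2 farthest libraries for Zeb1 (0.18), Vim (-0.02), Fn1 (-0.13) and S100a4 (0.12), and without RPC tumour 4 for Zeb1 (0.11) and S100a4 (0.20). On leaving out 1 library r ranged from -0.52 to 0.11 for Zeb1 and from -0.24 to 0.20 for S100a4. Gas6 ranged from -1.02 without RPC tumour 5, where its sign changed, to 1.36 without RP tumour 1, an alternative chosen after seeing the data, and of 76 named list genes not called, 9 were called on leaving out at least 1 library. For the score relations, in each setting 0 of 8 passed the adjusted threshold. The median of the partner list became -0.02 with the non-tumour score, and that of the TAM list, 0.63, was -0.32 with limma-voom, -0.36 with the block and -0.18 without RPC tumour 5. Snai1 and S100a4 at under 10 counts in RPC tumours 3 and 6, Twist2 everywhere and Twist1 in most tumours limit what these depths show.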

Other observations

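The balance within pairs of related repressors was looked at after the values were seen, and so is given as a description. A permutation test run on these ratios is for that reason not reported. The log2 ratio of Zeb1 to Zeb2 was 0.29 ± 1.02 in RP and 1.86 ± 1.03 in RPC (SD, n = 7 each). It was above the RP median in 7 of 7 RPC tumours and above every RP tumour (at most 1.60) in 4, with 3.79 in RPC tumour 3 and 2.55 in RPC tumour 5. Without RPC tumours 3, 5 and 6, the RPC mean was 1.33 ± 0.52 (n = 4). The log2 ratio of Snai2 to Snai1 was 0.28 ± 0.97 in RP and 1.86 on average in RPC, with 2.50, 2.81, 3.66 and 2.77 in RPC tumours 3, 5, 6 and 7 against at most 1.26 in RP. RPC tumours 1, 2 and 4, at -0.24, 0.78 and 0.77, lay inside the RP range, and without RPC tumours 3, 5 and 6 the RPC mean was 1.02 ± 1.26 (n = 4).

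RPC tumour 5 held the highest Pdgfra of any library, 116.9 CPM, and the highest Lum, 8.02 CPM against at most 6.21 CPM elsewhere. The other fibroblast markers Col1a1, Col1a2, Col3a1 and Dcn were at 0.379, 0.108, 0 and 0.325 CPM there. Kdr, listed as an endothelial marker, was at 82.8 CPM in the same tumour, above every other library (at most 33.1 CPM), where the other endothelial markers Pecam1 and Tek were at 2.06 and 0.217 CPM and Cdh5, Cldn5 and Emcn had no count.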
